A study of Mus musculus with 36 samples.

Results

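Among the 45037 probe sets of the array that are not Affymetrix controls, 71 (0.158%) were private to the inbred mouse strain 129P3/J in striatum. A probe set counted as private when its mean log2 intensity over the 9 arrays of 129P3/J lay more than 1 above, or more than 1 below, the means of each of the other 3 strains, C57BL/6J, DBA/2J and SWR/J, and the highest of the 4 strain means exceeded 6.64. The distance to the nearest of the other strain means is called the gap here. The members were thus chosen by their strain means, the measured values of these same arrays, so every difference between strains in their values is a description and carries no test. Of the 71 members, 21 were higher and 50 were lower in 129P3/J. Among them, 52 carried 1 gene symbol each, which stood for 49 genes, and 19 carried none. By the same rule C57BL/6J had 71 private probe sets (46 higher, 25 lower), DBA/2J 83 (26 higher, 57 lower) and SWR/J 66 (15 higher, 51 lower). A further 4 probe sets met the rule for both 129P3/J and C57BL/6J and were assigned to C57BL/6J, where the gap was larger.

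A probe set is a group of short oligonucleotides of the array designed to match a stretch of a transcript. Its intensity is read from the labelled RNA that binds them. The identifiers of 62 members end in _at, of 7 in _a_at, of 1 (Fam241a) in _s_at and of 1 (Fxyd2) in _x_at. Whether the probes of a member also bind other transcripts was not tested. Inbred strains are homozygous at nearly every locus, so that an allele found in 1 strain marks all its mice. An allele can raise or lower the amount of a transcript, move its end or its splicing, or change bases under the probes, and each of these changes the intensity of a probe set. The intensity of 1 probe set alone does not tell these apart. The probes of this array were designed on public mouse transcripts, and other probe sets of the same gene read other stretches of the transcript.

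The 36 arrays held striatal RNA (the rostral part of caudate and putamen together with nucleus accumbens) of adult male mice aged 8 to 10 weeks. There were 12 groups of 3 arrays, made of mice of 129P3/J, C57BL/6J, DBA/2J or SWR/J that received saline, acute morphine or chronic morphine. Saline mice received saline on every day of the schedule, acute mice received saline for 4 days and then 20 mg/kg of morphine, and chronic mice received 3 injections of morphine a day, at 10, 20, 40 and 40 mg/kg on days 1 to 4, with a last injection of 40 mg/kg on day 5. All tissue came from 4 hours after the final injection. RNA of 3 mice was pooled for every array, 9 mice to a group, so that p-values measure the spread between pools and no value belongs to a single mouse. The labels give no breeding or litter of the mice.

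Values are log2 of the deposited intensity unless another scale is named. Array medians lay between 119 and 133 on the linear scale, and a floor at an intensity of 6.69, which is 2.74 in log2, held 3.68% to 4.53% of the values of an array. A probe set was called detected when its log2 intensity exceeded 6.64 on at least 9 of the 36 arrays, which 27212 did. Of the members, 68 were detected. The other 3, Cers5, 1456449_at and 1459064_at, were higher in 129P3/J and entered no morphine test. Markers of medium spiny neurons, the main striatal neuron type, were present at like levels, with summed intensities over 8 markers of 18487 to 21845 on the 129P3/J arrays, against 18026 to 21638 (C57BL/6J), 18191 to 21497 (DBA/2J) and 18752 to 22877 (SWR/J) on the others. In bulk tissue fewer cells of a type and less RNA per cell cannot be told apart.

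Each array was placed on 1 side of the midpoint between the 129P3/J mean and the nearest of the other strain means for every member. The rule used these same values, so the counts are a description. The 129P3/J arrays had 62 to 71 of 71 members on the 129P3/J side, and the arrays of the other strains 0 to 10. The 62 belonged to chronic morphine replicate 1 of 129P3/J, while the other 8 arrays of this strain had 69 to 71. The 10 belonged to saline replicate 1 of C57BL/6J, where the 3' minus 5' difference of the control probe sets, a sign of RNA quality, was 0.72 for Gapdh and 1.29 for actin, against -0.11 to 0.12 and 0.24 to 0.83 on the other 35 arrays. The same differences were 0.03 and 0.54 on 129P3/J chronic replicate 1. With both arrays left out, a choice made after the values were seen, 74 probe sets met the rule, and 69 of the 71 members were among them.

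**Figure D1:**
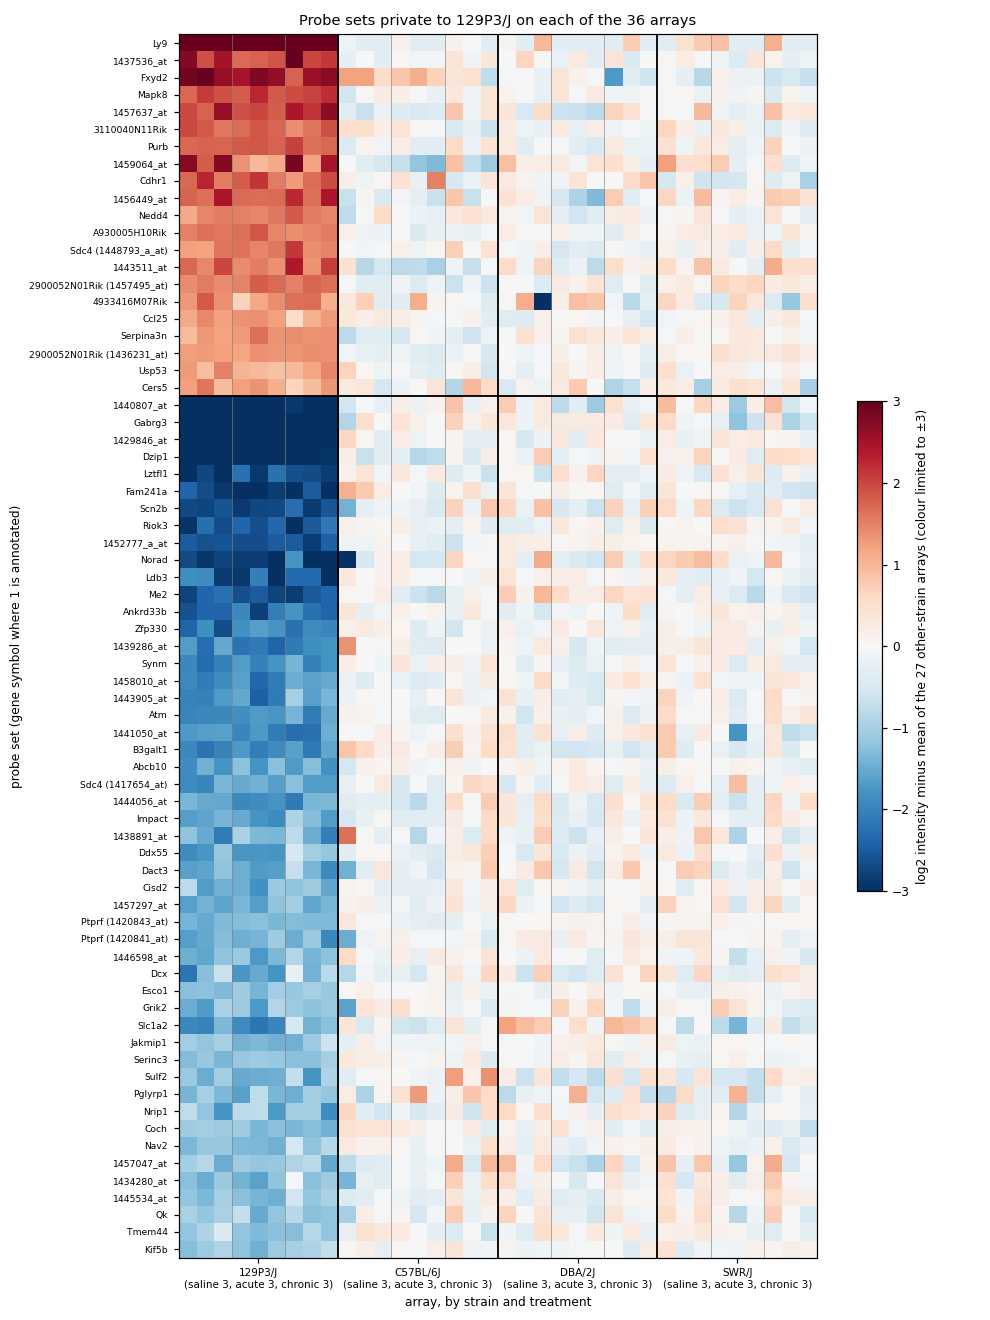
Log2 intensity of each of the 71 private probe sets (rows, the 21 higher in 129P3/J above the line and the 50 lower below it) on each of the 36 arrays (columns, by strain and treatment), shown as the difference from the mean of the 27 arrays of the other strains. The 9 columns of 129P3/J stand apart in colour from the 27 others in nearly every row, and the first chronic array of 129P3/J is the palest of the 9.

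For 52 of the 71 members (17 higher, 35 lower) the 9 arrays of 129P3/J lay wholly outside the range of the 27 other arrays, which was true of 0.562% of all detected probe sets (0.176% above, 0.386% below). Since the rule used these same values, nothing follows from that contrast. With both arrays that stand apart left out, 61 members did not overlap. The median gap was 1.44 (1.46 among the higher, 1.40 among the lower members), and 15 members had a gap over 2, of which 2 were higher and 13 were lower in 129P3/J. The other 3 strains were close to each other in most members: their means lay within 0.5 of each other in 59 of 71, and over 1 apart only in Slc1a2. Within strains the members were noisier than the rest, with a median SD of 0.298 against 0.193 over all detected probe sets.

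The gaps were present under each treatment. In the saline, acute and chronic arrays taken alone, 61, 60 and 58 members kept a gap over 1, and all 71 kept a gap over 0 in each. These are parts of the same arrays that the rule used, so the counts describe the members and test nothing. In 27 of the 50 lower members none of the 9 arrays of 129P3/J exceeded 6.64. In 9 of these all 27 other arrays exceeded it, namely Lztfl1, Riok3, Me2, Ankrd33b and the unannotated 1440807_at, 1429846_at, 1458010_at, 1443905_at and 1444056_at. The reverse, all 9 arrays of 129P3/J above and none of the 27 others, was seen in 4 members, Ly9, Ccl25, Usp53 and 1437536_at. In 20 members all 36 arrays exceeded 6.64, so that the strains differed in the level of a signal present in all of them.

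The members are described by their known roles, in groups put together after the values were seen, and each value is that of the private probe set and not of every probe set of the gene. Of all 71 members 50 were lower, and no group was tested against that share. Among genes of immune cells and secreted defence proteins, Ly9, Ccl25 and Serpina3n were higher and Pglyrp1 was lower in 129P3/J. The largest gap of all, 4.80, was that of Ly9, a receptor of the SLAM family on lymphocytes. Ly9 read 7.75 to 8.34 (median 8.03) on the 129P3/J arrays, against 2.74 to 4.12 (median 2.74) on the others. The groups did not overlap, and since 16 of the 27 other arrays stood at the floor, the difference of 4.98 between 129P3/J and the mean of the other strains is a lower limit. The other 4 detected genes of the SLAM list (Slamf1, Cd84, Slamf6 and Slamf9) differed by only -0.07 to 0.14, and the 3 detected lymphocyte markers (Cd3e, Cd4 and Cd8a) by -0.08 to 0.03. Ccl25, a chemokine that attracts T cells, read 6.68 to 7.57 (median 7.35) in 129P3/J and 5.62 to 6.47 (median 6.14) in the others. Serpina3n, a secreted protease inhibitor of the acute phase response, read 8.88 to 9.58 (median 9.28) in 129P3/J and 7.14 to 8.39 (median 7.96) in the others. Both were separated on every array, though by narrower margins than Ly9. Pglyrp1, which binds bacterial peptidoglycan, went the other way, with 4.85 to 5.72 (median 5.13) in 129P3/J and 5.55 to 7.76 (median 6.34) in the others. Its ranges overlapped, and none of the 9 arrays of 129P3/J and 10 of the 27 others exceeded 6.64.

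Among ion channels, receptors and transporters of neurons and glia, the private probe sets of Gabrg3, Scn2b, Slc1a2 and Grik2 were lower and that of Fxyd2 was higher. Gabrg3, the gamma 3 subunit of the GABA-A receptor, had a gap of 3.88. On the 129P3/J arrays it read 2.74 to 3.16 (median 2.78, with 4 of 9 at the floor), against 5.86 to 7.77 (median 7.21) on the others, and the difference of -4.19 is limited by the floor. Scn2b, the beta 2 subunit of voltage-gated sodium channels, read 7.88 to 8.46 (median 8.04) in 129P3/J and 9.34 to 11.63 (median 10.59) in the others, which makes the mean of the others 6.40-fold that of 129P3/J. No array of 129P3/J reached the lowest of the others for either gene. Fxyd2, the regulatory gamma subunit of the sodium pump, was higher, with 7.57 to 8.75 (median 8.42) in 129P3/J and 4.07 to 7.00 (median 5.73) in the others, a fold of 6.05. The other strains were not alike in Fxyd2, since C57BL/6J averaged 6.42 against 5.51 in DBA/2J and 5.44 in SWR/J. Slc1a2, the main glutamate transporter of astrocytes, read 7.29 to 8.98 (median 7.58) in 129P3/J and 8.06 to 10.68 (median 9.43) in the others. Grik2, a kainate receptor subunit, read 5.32 to 6.16 (median 5.92) in 129P3/J and 5.44 to 7.77 (median 7.09) in the others. The arrays overlapped in both. In Grik2 the overlap came from C57BL/6J saline replicate 1 alone, at 5.44, and the next lowest array of the other strains read 6.28. The highest Slc1a2 value of 129P3/J, 8.98, came from chronic replicate 1, the array of this strain that stands apart.

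**Figure D2:**
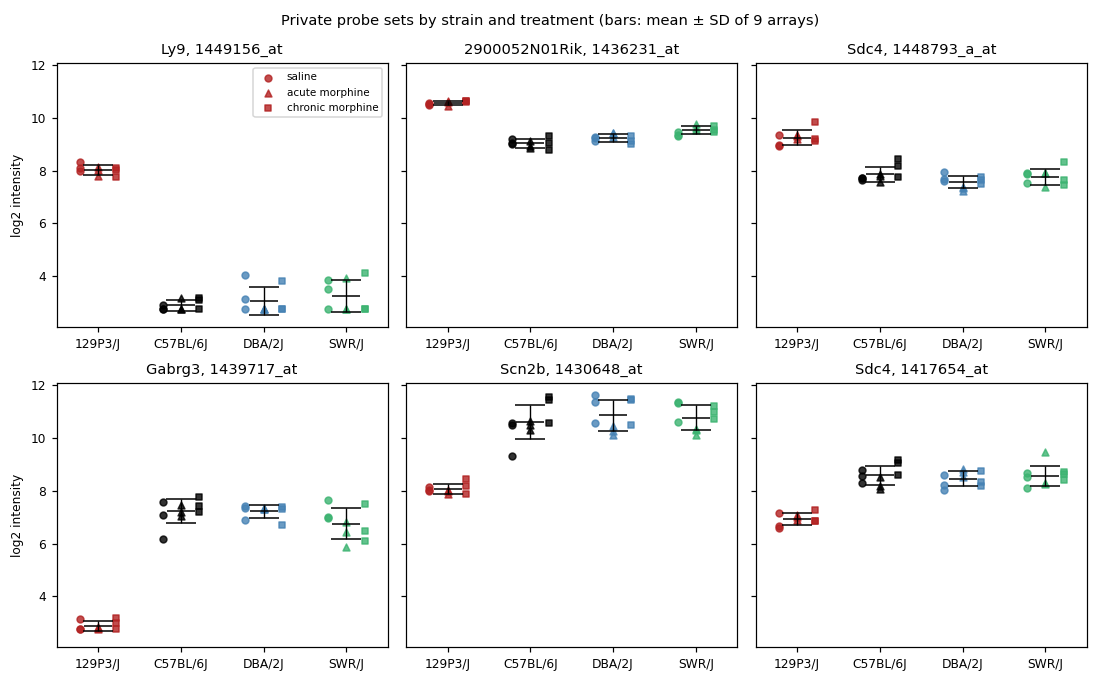
Log2 intensity of 6 private probe sets on every array, by strain (columns) and treatment (symbols), with the mean and SD of the 9 arrays of each strain. Ly9, 2900052N01Rik and the Sdc4 probe set 1448793_a_at are higher in 129P3/J, Gabrg3, Scn2b and the Sdc4 probe set 1417654_at are lower, and in all 6 no array of 129P3/J lies within the range of the others.

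Kinases and enzymes of protein turnover stood on both sides. Mapk8, the stress-activated kinase JNK1, read 8.49 to 9.04 (median 8.74) in 129P3/J and 6.23 to 7.17 (median 6.78) in the others at 1457936_at, a fold of 3.96. Nedd4, an E3 ubiquitin ligase, read 10.16 to 10.86 (median 10.55) in 129P3/J and 8.27 to 9.57 (median 9.05) in the others. Usp53, of the ubiquitin-specific protease family, had a gap of 1.05. The ranges of these 3 did not overlap between 129P3/J and the rest. Riok3, an atypical kinase of the RIO family, was lower, with 5.38 to 6.35 (median 5.97) in 129P3/J and 8.05 to 9.02 (median 8.53) in the others. Atm, the kinase that answers DNA double-strand breaks, was lower by a gap of 1.65, and Ptprf, the receptor tyrosine phosphatase LAR, was lower at both of its private probe sets, each with a gap of 1.23.

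Among members that act on DNA, RNA or translation, the private probe set of Purb was higher, and those of Norad, Zfp330, Ddx55, Esco1, Nrip1, Qk and Impact were lower. Purb, a protein that binds purine-rich single-stranded nucleic acid, read 9.52 to 9.93 (median 9.65) in 129P3/J and 7.42 to 8.58 (median 7.79) in the others. Norad, a noncoding RNA that binds Pumilio proteins, read 4.66 to 6.25 (median 5.16) in 129P3/J and 4.40 to 9.13 (median 7.99) in the others. The overlap in Norad came from the C57BL/6J saline array of replicate 1, at 4.40, while the other 8 arrays of that strain lay between 7.49 and 8.65. Of the remaining members of this kind, the zinc finger gene Zfp330 had a gap of 1.95, the RNA helicase Ddx55 of 1.32, Esco1, an acetyltransferase of cohesin, of 1.17, Nrip1, a corepressor of nuclear receptors, of 1.08, Qk, an RNA-binding protein required for myelin, of 1.01, and Impact, a regulator of translation, of 1.42. All were lower in 129P3/J, and the arrays of Zfp330, Ddx55, Esco1 and Impact did not overlap with those of the other strains.

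Cytoskeleton, cilium and matrix genes formed another group. Dzip1, needed for cilium formation, read 3.78 to 4.49 (median 4.08) in 129P3/J and 6.59 to 8.20 (median 7.48) in the others. Lztfl1, which regulates ciliary traffic of the BBSome, read 4.58 to 5.55 (median 5.06) in 129P3/J and 7.11 to 8.42 (median 7.82) in the others. At both of these private probe sets every array of 129P3/J was below the level for detection. The other detected probe sets averaged 7.64 and 9.07 for Dzip1 and 6.26, 8.09 and 8.7 for Lztfl1 in 129P3/J. Their differences from the mean of the other strains were 0.06 and -0.21 for Dzip1 and -0.36, -0.004 and 0.48 for Lztfl1. Ldb3, a PDZ-LIM protein of the muscle Z-disc, was lower by a gap of 2.30, Synm, an intermediate filament protein, by 1.77, and Kif5b, a heavy chain of the kinesin motor, by 1.00. Dcx, a microtubule protein of migrating young neurons, read 7.31 to 9.27 (median 8.09) in 129P3/J and 8.64 to 10.21 (median 9.42) in the others. Its ranges overlapped, again with the highest 129P3/J value on chronic replicate 1. Coch, a protein of the extracellular matrix, read 7.05 to 7.44 (median 7.23) in 129P3/J and 7.76 to 8.96 (median 8.56) in the others, without overlap. Cdhr1, a cadherin of photoreceptor cells, was higher, with 7.75 to 8.75 (median 8.19) in 129P3/J and 5.51 to 7.98 (median 6.47) in the others. Of the 8 detected genes of the photoreceptor list, Cdhr1 was a member, and Rpgrip1 of the connecting cilium was among the 4 probe sets assigned to C57BL/6J, with means of 5.69 in 129P3/J and 9.85, 6.88 and 7.00 in C57BL/6J, DBA/2J and SWR/J.

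Sdc4, a heparan sulfate proteoglycan of the cell surface, was the only gene with private probe sets on both sides. At 1448793_a_at it read 8.94 to 9.85 (median 9.22) in 129P3/J and 7.24 to 8.46 (median 7.71) in the others. At 1417654_at it read 6.58 to 7.29 (median 6.90) in 129P3/J and 8.03 to 9.46 (median 8.54) in the others. The differences from the mean of the other strains were 1.52 and -1.60, and no array crossed over at either probe set. Sulf2, which removes sulfate from heparan sulfate, was lower by a gap of 1.10.

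Among enzymes of metabolism and mitochondrial proteins, the private probe sets of Me2, B3galt1, Abcb10 and Cisd2 were lower and that of Cers5 was higher. Me2, the mitochondrial malic enzyme, read 5.30 to 5.90 (median 5.63) in 129P3/J and 7.32 to 9.14 (median 8.18) in the others. B3galt1, a galactosyltransferase, had a gap of 1.59, Abcb10, a transporter of the inner mitochondrial membrane, of 1.54, and Cisd2, an iron-sulfur protein of mitochondria and endoplasmic reticulum, of 1.29. None of the arrays of these 4 genes overlapped with those of the other strains. Cers5, a ceramide synthase, was the higher member nearest to both limits of the rule, with a gap of 1.04 and a 129P3/J mean of 6.67.

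Members whose function is little described included 3110040N11Rik (gap 1.70), A930005H10Rik (1.44), 4933416M07Rik (1.22) and 2900052N01Rik (1.24 at 1457495_at, 1.05 at 1436231_at), all higher in 129P3/J, and Fam241a (2.65), Ankrd33b (2.16), Jakmip1 (1.12), Serinc3 (1.11) and Tmem44 (1.00), all lower. Dact3, of the Wnt pathway, and Nav2, a neuron navigator protein, were lower by gaps of 1.32 and 1.07. The 5 higher members without a symbol had gaps of 1.30 to 2.16 and the 14 lower ones of 1.02 to 3.91, where 1440807_at led with 3.18 to 5.50 (median 4.29) in 129P3/J and 7.31 to 9.34 (median 8.34) in the others. Members without a symbol made up 26.8% of the 71, against 14.3% of all detected probe sets.

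The members just inside the gap limit were Cers5 (1.04), Usp53 (1.05) and 2900052N01Rik at 1436231_at (1.05) among the higher ones, and Kif5b (1.0016), Tmem44 (1.0027) and Qk (1.0077) among the lower ones. Just outside it lay Ywhaz (0.917), 1428301_at (0.909) and Sec23ip (0.901) above, and Arf5 (0.996), Mpeg1 (0.987) and 1437987_at (0.974) below. With 1 of the 36 arrays left out at a time, 10 members fell short of the rule at least once. Tmem44 did so on removal of 11 of the arrays, Qk of 9 and Kif5b of 8, Nrip1, 1434280_at, 1445534_at and 1457047_at of 5 each, Cers5 and Pglyrp1 of 3 each and 1438891_at of 1. The other 61 members met it each time.

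Most genes with a private probe set also had a probe set that showed no such difference. Of the 71 members, 39 (8 higher, 31 lower) belonged to a gene with at least 1 other detected probe set that was not itself a member, and in 33 of these 39 every such probe set differed by less than 0.5 between 129P3/J and the mean of the other strains. Counted by probe set, 78 of 85 lay within 0.5, with a median difference of -0.02, and over all detected probe sets 97.7% lay within 0.5. The count of 33 came to 32 with both arrays that stand apart left out. Gabrg3 differed by -4.19 at its member, and by 0.06 and 0.08 at its other detected probe sets. Scn2b differed by -2.68 at its member, and by 0.41 and -0.05 elsewhere. The 4 other probe sets of Purb differed by -0.01 to 0.02, those of Mapk8 by -0.15 to 0.32, both of Norad by -0.01, those of Slc1a2 by 0.06 and -0.11, those of Me2 by -0.14 and 0.20, and that of Grik2 by -0.05. In these genes the difference of the strain stood at 1 probe set and not at the rest. Which stretch of the transcript each probe set reads, and whether 129P3/J carries base changes there, was not tested.

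**Figure D3:**
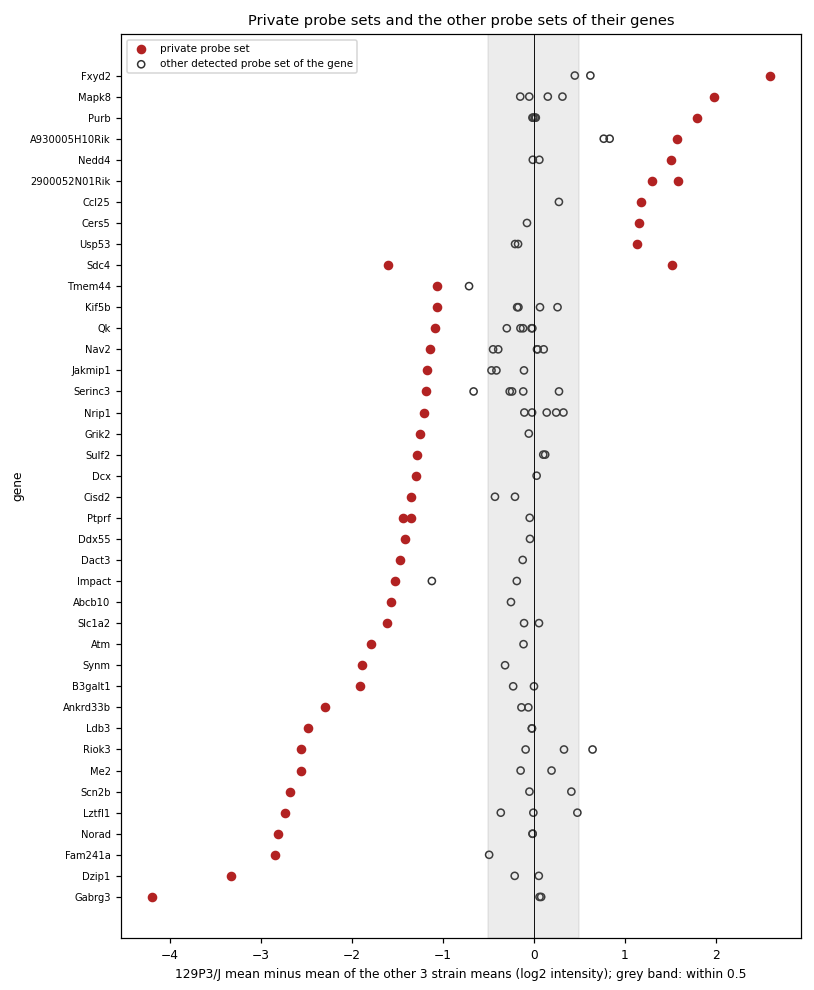
Difference between the 129P3/J mean and the mean of the other 3 strain means (x axis, log2 intensity) for the private probe sets (filled) and the other detected probe sets (open) of each gene that has both or has more than 1 member (rows). Most open points, 78 of 85, lie in the grey band within 0.5 of no difference, while the filled points lie beyond 1.

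A minority of genes differed at more than 1 probe set. In 5 members another detected probe set differed by over 0.5 in the direction of the member. They were Fxyd2 (0.62, with 0.45 at a further one), A930005H10Rik (0.77 and 0.84), Impact (-1.12, with -0.19 at a further one), Serinc3 (-0.66 at 1 of 5) and Tmem44 (-0.71). Apart from Sdc4, whose opposite probe sets were both members, Riok3 was the only gene with a detected probe set over 0.5 the other way, at 0.65 against -2.56 at its member. Both members of 2900052N01Rik lay in the same direction, with 10.46 to 10.66 (median 10.60) in 129P3/J and 8.79 to 9.76 (median 9.28) in the others at 1436231_at, and 9.57 to 9.96 (median 9.71) in 129P3/J and 7.50 to 8.81 (median 8.15) in the others at 1457495_at. In 129P3/J this gene was higher on every array at either probe set. Ptprf was lower at 2 probe sets and differed by -0.04 at its other one.

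In 2900052N01Rik, A930005H10Rik and Tmem44 every detected probe set, at least 2 of them, lay over 0.5 to the same side, so their promoters are shown as the regulatory sequence next to a difference that more than 1 probe set reads. The sequences are RefSeq windows of assembly GRCm38.p6, which represents C57BL/6J and not 129P3/J, from 250 bases before to 50 bases after the start of the gene. They lie at chr9:46913353-46913652 on the plus strand, chr3:115888081-115888380 on the minus strand (the first of 3 windows of the gene) and chr16:30550529-30550828 on the minus strand. Capitals mark the only match to the motifs searched on both strands, TATAAA for the TATA box, CCAAT for the CCAAT box and GGGCGG for the GC box.
2900052N01Rik: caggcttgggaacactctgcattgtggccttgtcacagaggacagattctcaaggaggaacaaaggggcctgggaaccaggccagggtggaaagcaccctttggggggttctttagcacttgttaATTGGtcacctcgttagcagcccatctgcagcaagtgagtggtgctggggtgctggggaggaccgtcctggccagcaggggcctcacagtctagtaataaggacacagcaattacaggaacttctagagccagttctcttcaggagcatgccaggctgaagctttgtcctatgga
A930005H10Rik: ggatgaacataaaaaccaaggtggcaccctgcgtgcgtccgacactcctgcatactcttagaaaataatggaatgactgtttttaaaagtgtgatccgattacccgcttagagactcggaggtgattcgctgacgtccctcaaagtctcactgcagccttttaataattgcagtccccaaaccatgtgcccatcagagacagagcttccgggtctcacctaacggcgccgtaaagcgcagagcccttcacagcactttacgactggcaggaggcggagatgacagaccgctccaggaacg
Tmem44: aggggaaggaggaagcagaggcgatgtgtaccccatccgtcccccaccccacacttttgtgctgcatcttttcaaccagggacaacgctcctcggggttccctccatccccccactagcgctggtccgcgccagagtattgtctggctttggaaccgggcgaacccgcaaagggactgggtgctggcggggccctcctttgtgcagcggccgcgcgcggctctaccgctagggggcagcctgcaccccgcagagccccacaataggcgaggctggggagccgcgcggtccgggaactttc

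The window of 2900052N01Rik holds CCAAT once, read on the other strand as ATTGG, 125 bases before the start, and the other 2 windows hold none of the 3 motifs. Of all 32851 RefSeq promoter windows of the same length, 13.6% hold TATAAA, 37.4% CCAAT and 35.7% GGGCGG on either strand. Among the 53 windows found for 39 of the 49 member genes, 7 held TATAAA, 21 CCAAT and 25 GGGCGG. A match is a description of the letters and not a site of binding.

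Some member genes were neighbours on the chromosomes. In the gene order of GRCm38.p6, counted over genes with a detected probe set, 18 of the 49 genes (36.7%) lay in 7 runs in which no more than 20 such genes stood between members. The share was 31.1% for the 45 genes private to C57BL/6J, 26.7% for the 60 of DBA/2J and 12.8% for the 39 of SWR/J. The share among detected genes in general was not computed, so whether 36.7% is more than usual was not tested. On chromosome 18, Kif5b, Esco1, Riok3 and Impact followed each other with 11, 4 and 5 genes between them, and all were lower in 129P3/J. On chromosome 9, Scn2b (lower) was followed by Fxyd2 and 2900052N01Rik (both higher) with 3 and 14 genes between. On chromosome 14, Mapk8 (higher), Ldb3 (lower) and Cdhr1 (higher) had 12 and 5 genes between them. The first of these runs held members of 1 direction, and the other two held both. The runs of 2 genes were Serinc3 and Sdc4 on chromosome 2, Usp53 and Fam241a on chromosome 3, and on chromosome 7 Dact3 with Pglyrp1 and Nav2 with Gabrg3. Chromosome 18 held 5 of the 49 genes (10.2%), against 2.55% of all genes with a detected probe set, and chromosomes 2, 7 and 9 held 6 each (12.2%), against 8.06%, 7.76% and 5.59% of all genes with a detected probe set.

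The rule did not use the morphine contrasts, because each strain mean averages over all treatments of a balanced design. The tests were still chosen with earlier results of these data known. All members that passed the detection level entered a limma fit of 12 group means to 27212 probe sets, with Benjamini-Hochberg adjustment over all of them. The acute and the chronic contrast share the saline arrays. Acute morphine against saline, averaged over the 4 strains, passed an adjusted p of 0.05 in 7 of 68 members, against 4.69% of all detected probe sets. Of the 7, 2 were higher (background 2.59%) and 5 lower (background 2.11%) after acute morphine. At an unadjusted p of 0.05, 24 of 68 passed, with a background of 19.6%. The median change of the members was -0.13, and that of all detected probe sets 0.01.

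Me2 fell after acute morphine by 0.40 (SE 0.10, limma adjusted p = 0.0161). Its acute arrays of 129P3/J read 5.50, 5.65 and 5.36 and the saline arrays 5.35, 5.77 and 5.90, so that these overlapped, and the strain changes were -0.17 in 129P3/J and -0.70, -0.29 and -0.45 in C57BL/6J, DBA/2J and SWR/J. Fam241a fell by 0.38 (SE 0.10, adjusted p = 0.0207), with -0.34 in 129P3/J and -0.85, -0.01 and -0.34 in C57BL/6J, DBA/2J and SWR/J. Slc1a2 fell at its private probe set by 0.55 (SE 0.14, adjusted p = 0.0239), with -0.25 in 129P3/J and -0.53, -0.84 and -0.58 in C57BL/6J, DBA/2J and SWR/J. The remaining falls were in the unannotated 1443511_at, by 0.54 (adjusted p = 0.0263), and 1444056_at, by 0.47 (adjusted p = 0.0310). The 2 that rose were Lztfl1, by 0.41 (SE 0.10, adjusted p = 0.0237), with 0.56 in 129P3/J and 0.04, 0.61 and 0.41 in C57BL/6J, DBA/2J and SWR/J, and 2900052N01Rik at 1457495_at, by 0.27 (SE 0.07, adjusted p = 0.0191), with 0.20 in 129P3/J and 0.02, 0.40 and 0.45 in C57BL/6J, DBA/2J and SWR/J. All 7 had the same sign in the 4 strains. They were called on the mean of these strains, so this is no separate support. In Me2, Fam241a, Lztfl1 and 1444056_at every array of 129P3/J was below the level for detection. The changes of these members within 129P3/J were thus poorly measured. Some strain changes were close to none, such as -0.01 for Fam241a in DBA/2J and 0.02 for 2900052N01Rik in C57BL/6J. The changes were small beside the strain gaps, which were 2.26 for Me2 and 2.72 for Lztfl1.

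Chronic morphine against saline passed in 4 of 68 members, all lower, against 4.73% of all detected probe sets (1.36% higher, 3.37% lower). At an unadjusted p of 0.05, 14 of 68 passed, with a background of 21.5%. Both counts lay near the background, so no trait of the members is read from them. Coch fell by 0.42 (SE 0.07, limma adjusted p = 0.00159). In 129P3/J its chronic arrays read 7.12, 7.21 and 7.05 and its saline arrays 7.42, 7.44 and 7.41, without overlap, and the changes were -0.30 in 129P3/J and -0.47, -0.28 and -0.62 in C57BL/6J, DBA/2J and SWR/J. Fam241a fell by 0.45 (SE 0.10, adjusted p = 0.00752). 3110040N11Rik fell by 0.40 (SE 0.09, adjusted p = 0.0145), with -0.16 in 129P3/J and -0.85, -0.08 and -0.50 in C57BL/6J, DBA/2J and SWR/J. Fxyd2 fell by 0.61 (SE 0.15, adjusted p = 0.0150), with -0.47 in 129P3/J and -0.96, -0.81 and -0.20 in C57BL/6J, DBA/2J and SWR/J. In 129P3/J the chronic arrays of Fxyd2 read 7.57, 8.35 and 8.50 and the saline arrays 8.66, 8.75 and 8.41, and the lowest of them was chronic replicate 1. Coch and Fxyd2 thus fell after chronic morphine from opposite sides of the strain comparison, Coch being lower and Fxyd2 higher in 129P3/J than in the other strains.

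**Figure D4:**
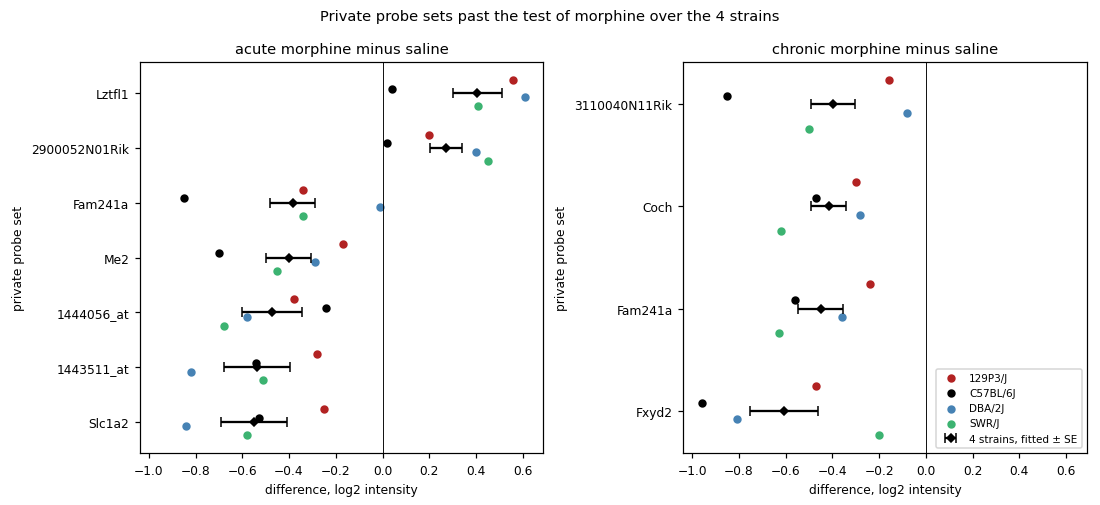
Morphine minus saline difference in log2 intensity (x axis) of the private probe sets past an adjusted p of 0.05 over the 4 strains, for acute morphine (left, 7 probe sets) and chronic morphine (right, 4). Coloured points are the differences within each strain and diamonds the fitted mean over strains with its SE. All points of a probe set lie on the same side of 0, some of them very near it, and the probe sets were called on the mean of these points. The point of 129P3/J lies within the range of the other strains or nearer to 0 in each. For Me2, Fam241a, Lztfl1 and 1444056_at every array of 129P3/J was below the level for detection, so this point was poorly measured.

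These calls rest on arrays being independent. Arrays that share a treatment and a replicate number deviated together across strains (mean correlation 0.264 over 54 pairs), and with that shared deviation as a random block (consensus correlation 0.241) none of the 7 acute calls and only Coch of the 4 chronic calls passed, while the background was 0.676% after acute and 0.331% after chronic morphine. The adjusted p-values with the block were 0.154 to 0.252 for the acute members, 0.0301 for Coch, 0.0992 for Fam241a, 0.161 for 3110040N11Rik and 0.199 for Fxyd2. With both arrays that stand apart left out, Coch (0.00631) and Fam241a (0.0312) passed after chronic morphine and 3110040N11Rik (0.0556) and Fxyd2 (0.0598) did not, while all 7 acute members passed, at 0.0123 to 0.0409. The acute calls of Lztfl1, Slc1a2, 1443511_at and 1444056_at were also lost without SWR/J saline replicate 3 and without DBA/2J acute replicate 3, taken 1 at a time. The 3' minus 5' difference of actin had a median of 0.44 on saline, 0.57 on acute and 0.55 on chronic arrays. In DBA/2J it was 0.67 to 0.83 on the acute arrays, against 0.40 to 0.60 on the saline arrays, and its part in these changes was not tested.

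Within 129P3/J alone, no member passed after acute morphine (background 0.0147%) or after chronic morphine (background 0.00367%), in limma with 3 arrays against 3. At an unadjusted p of 0.05 there were 4 members after acute morphine (background 3.36%) and 6 after chronic morphine (background 4.7%). The members of smallest p after acute morphine were Zfp330 (0.56, SE 0.17, adjusted p = 0.847), Lztfl1 (0.56, adjusted p = 1.0) and Jakmip1 (-0.33, adjusted p = 1.0). Zfp330 read 7.08, 7.24 and 7.12 on the acute arrays of 129P3/J and 6.48, 7.04 and 6.23 on the saline arrays. These did not overlap, though the nearest values were only 7.08 and 7.04. After chronic morphine they were Ddx55 (0.69, SE 0.21), 1443905_at (0.58) and Slc1a2 (0.70), with adjusted p-values of 0.853 to 0.981. In Ddx55 the chronic arrays read 6.81, 6.26 and 6.13 and the saline arrays 5.40, 5.55 and 6.17. The highest was again on chronic replicate 1. In Lztfl1 and 1443905_at every array of 129P3/J was below the level for detection.

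The response of 129P3/J was then set against the mean response of the other 3 strains. No member passed for acute or chronic morphine, and none of the 27212 probe sets did, so that the background was 0% in both. At an unadjusted p of 0.05, 4 members passed for the acute response (background 1.19%) and 5 for the chronic response (background 2.32%). Both backgrounds lay below the share that a threshold of 0.05 allows by itself, so the absence of calls does not show that the responses were alike. No member passed with the random block either. The smallest p-values for the acute response were those of Zfp330 (difference 0.53, SE 0.19, adjusted p = 1.0), Jakmip1 (-0.42, SE 0.16) and B3galt1 (0.60, SE 0.28), and for the chronic response those of Nav2 (0.46, SE 0.19), Zfp330 (0.46, SE 0.19) and 1443905_at (0.59, SE 0.26). Zfp330 was 0.56 higher after acute morphine in 129P3/J, against -0.36, 0.23 and 0.22 in C57BL/6J, DBA/2J and SWR/J, so that C57BL/6J alone moved the other way. The F-test of the interaction of strain and treatment called no member at an FDR of 1% (background 0%), and 3 members (Zfp330, Scn2b and Ptprf at 1420843_at) had an unadjusted p under 0.05, with a background of 5.14%. Many of these comparisons had 1 side at low signal. In 27 of the 50 lower members no array of 129P3/J exceeded 6.64, and in Ly9, Ccl25, Usp53 and 1437536_at no array of the other strains did, so that for these members the response on that side was poorly measured, and values at the floor cannot show a fall. With 3 pools a group the SE of such a difference was 0.107 (Ptprf) to 0.345 (Scn2b) for the members named in this comparison.

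Marker lists of the cell types a striatal dissection can hold were read on the same arrays. On the strain means, no detected marker of medium spiny neurons, oligodendrocytes, astrocytes, microglia, endothelium, choroid plexus, red blood cells, lymphocytes or cortical excitatory neurons differed by over 1 between 129P3/J and the mean of the others, and none was a member. The widest differences were 0.84 for Slc17a7 of cortical excitatory neurons and -0.60 for C1qa of microglia. All 5 microglial markers were lower in 129P3/J than the mean of the others, by 0.09 to 0.60. Cx3cr1 was lower still in DBA/2J (8.56 against 8.62 in 129P3/J), and P2ry12 in C57BL/6J (8.29 against 8.45). Their summed signal was 2724 to 3202 on the 129P3/J arrays, against 3161 to 4181 (C57BL/6J), 3006 to 4002 (DBA/2J) and 3332 to 3989 (SWR/J), so that only SWR/J did not overlap with 129P3/J. Summed over its 3 detected markers, the cortical signal was 522 to 2256 on the 129P3/J arrays, against 299 to 1238 (C57BL/6J), 458 to 1436 (DBA/2J) and 440 to 1602 (SWR/J). The choroid plexus signal was 1156 to 6357 on the 129P3/J arrays, against 1183 to 7295 (C57BL/6J), 1324 to 6007 (DBA/2J) and 1768 to 2766 (SWR/J). After acute morphine Cx3cr1 (adjusted p = 0.000363) and Aif1 (0.0345) of microglia fell by 0.52 and 0.33 and Flt1 of endothelium (0.0315) by 0.27. After chronic morphine Drd2, Rgs9 and Bcl11b of medium spiny neurons fell by 0.27, 0.18 and 0.23, Mag of oligodendrocytes by 0.23, Aqp4 and Gja1 of astrocytes by 0.30 and 0.21, and Flt1 by 0.25, at adjusted p-values of 0.00317 (Drd2) to 0.0457 (Flt1). With the random block Cx3cr1 alone of these passed (adjusted p = 0.0106), and the others stood at 0.272 after acute and at 0.0519 (Drd2) to 0.347 (Flt1) after chronic morphine. No other detected marker of these lists passed, and the cortical list had medians of 0.30 after acute and 0.77 after chronic morphine with no gene called. The part of any of these in the strain differences or the changes of the members was not tested.

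Pathway lists were read against the same backgrounds, 4.69% of all detected probe sets after acute and 4.73% after chronic morphine. The SLAM list held the member Ly9 and the photoreceptor list the member Cdhr1. The MHC list and both galactolipid lists held no member. Of the SLAM list no detected gene passed after morphine, nor did any of 10 detected genes of MHC class I, class II and peptide loading or of 8 photoreceptor genes. These lists are short, and at such shares under 1 call would fall in each. Among 6 genes of galactolipid synthesis, 2 passed after acute and 3 after chronic morphine. Ugt8a fell by 0.49 after acute and 0.60 after chronic morphine, Gal3st1 by 0.20 and 0.19, and Fa2h by 0.30 after chronic morphine, at adjusted p-values of 1.66e-05 (Ugt8a, chronic) to 0.0464 (Gal3st1, chronic). With the random block Ugt8a passed after both (adjusted p = 0.0086 and 0.00163) and Fa2h after chronic morphine (0.0476), while Gal3st1 did not (0.262 and 0.332). Among 10 detected genes of galactolipid and sphingolipid breakdown, Hexa fell by 0.21 after chronic morphine (adjusted p = 0.0112, and 0.149 with the random block), and Galc, which breaks down galactosylceramide, was low in both 129P3/J (5.28) and SWR/J (5.38), against 8.20 in C57BL/6J and 8.15 in DBA/2J, and so was not private.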

How the data were processed

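The authors hybridized striatal RNA to 36 Affymetrix Mouse Genome 430 2.0 arrays and deposited a linear signal intensity for each of 45101 probe sets. The methods name RMA, a model-based index of perfect match and mismatch probes (dChip) and PDNN, and which of them these values are is not given in the sources used here. They were taken as the dChip index because they are linear and share a floor. Precision is limited by the 3 arrays of a group.

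Log2 of the deposited intensity was taken. Private probe sets were found by the rule given at the start of the report. The members, the gene lists and the tests were chosen with earlier results of these data known, so nothing here is independent of them. A probe set with log2 over 6.64 on at least 9 arrays was tested, which kept 27212. Means of the 12 groups were fitted to all 36 arrays in limma 3.58.1 under R 4.3.3 (24 residual and 3.89 prior degrees of freedom), with moderated contrasts at an adjusted p under 0.05 (Benjamini-Hochberg) and the interaction F-test at an FDR of 1%. All tests were two-sided. The 2 missing values of the table were left out. Labels share the numbers 1 to 3 between groups, and the numbers were not taken as pairs: deviations of arrays with the same strain and number under different treatments had a mean correlation of 0.0305 over 36 pairs, 14 of them over 0.1. The random block used statmod 1.5.0.

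Probe sets were named through the platform annotation, updated by Entrez ID to RefSeq, which matched all 52 members with 1 symbol. Named are the 15 members with 1 symbol of widest gap in each direction, those nearest the limits, past a test or of smallest p, with a second probe set or neighbour, and list genes that passed a treatment test. Other members were named after their values were seen. The gene lists are medium spiny neuron, oligodendrocyte, astrocyte, microglia, endothelium, choroid plexus, cortical excitatory neuron, red blood cell, lymphocyte, SLAM receptors, galactolipid breakdown, galactolipid synthesis, MHC and photoreceptor genes, and each gene is read at its detected probe set of highest mean. Tables and figures used Python 3.11.15, pandas 2.3.3, numpy 2.4.6 and matplotlib 3.10.9. The fit was tested on simulated data with known changes. Alternatives covered the filter, pseudocount, normalization, blocks, moderation, array weights, thresholds, the summary of a strain, and each array left out.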

Additional observations from a re-analysis of the deposited data

How the results depend on the processing

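The number of private probe sets depends on the limits of the rule. Against 71 (21 higher, 50 lower), a gap over 1.5 gave 33 (10 and 23), a gap over the log2 of 1.5 gave 179 (53 and 126), and a level 1 higher or log2 of the intensity plus 32 each gave 46 with 31 lower. With 1 array left out at a time there were 66 to 75, with 20 to 21 higher and 45 to 54 lower. Medians in place of means gave 72, of which 65 were members, saline arrays alone 70 (61 members) and quantile normalization 70 (70 members).

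The 7 acute calls over 4 strains became 0 at an adjusted p under 0.01, 0 with the random block and 25 with array weights, and the 4 chronic calls became 2 at 0.01, 2 with a filter on the mean, 1 with the random block and 2 with both arrays that stand apart left out. The replicate number as a block within strains gave 11 acute and 4 chronic calls. Arrays of 1 strain with the same number did not deviate together across treatments, so numbers were not taken as pairs, whereas arrays of 1 treatment with the same number did across strains, which the random block covers. With 1 array left out, acute calls ranged from 3 to 14: 3 without SWR/J saline replicate 3 or DBA/2J acute replicate 3, 4 without DBA/2J saline replicate 1 or 3, and 14 without DBA/2J saline replicate 2. Chronic calls ranged from 4 to 8, with 8 without C57BL/6J chronic replicate 2 and 7 without SWR/J saline replicate 3. Without SWR/J saline replicate 3 or DBA/2J acute replicate 3 the acute calls of Lztfl1, Slc1a2, 1443511_at and 1444056_at were lost, with adjusted p-values of up to 0.0604, 0.0571, 0.0631 and 0.0770. Lztfl1 was also lost without 129P3/J saline replicate 1, 129P3/J acute replicate 3 or DBA/2J saline replicate 3, Slc1a2 without 129P3/J saline replicate 3 or DBA/2J saline replicate 1, 1443511_at without these 2 or DBA/2J saline replicate 3, and 1444056_at without any of 7 others. Both unannotated probe sets were also lost without the filter on low values (0.0510 and 0.0584). Me2, Fam241a and 2900052N01Rik after acute morphine, and all 4 chronic calls, passed with any 1 array left out. The cause of these shifts was not tested. The counts of 0 within 129P3/J, for the response differences and for the interaction stayed at 0 under all 46 alternatives, and no named change turned its sign. Signals near the floor limit the size of the widest gaps.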
